A study of Mus musculus with 2 samples.

Results

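The 8 genes Mest, Plagl1, Grb10, Zdbf2, Rasgrf1, Impact, Peg10 and Sgce are imprinted genes of the mouse that carry control regions of their own. Their regions were taken as the RefSeq gene span on build mm10 with 5000 bp on each side, or 40000 bp on each side for Rasgrf1, and every CpG cytosine covered by 5 reads or more in each library was kept. This gave 1206 of the 2520523 cytosines so measured in the genome, in 8 of 31540 gene regions with at least 10 measured cytosines. Peg10 and Sgce lie 101 bp apart and share 21 of these cytosines, which were counted once.

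The study compared liver DNA of untreated and fasted mice by reduced representation bisulfite sequencing, in which DNA is digested by TaqαI and MspI and unmethylated cytosines are converted before sequencing. Both libraries came from CD-1 mice of 12 weeks, an outbred stock kept on standard chow given freely, and the fasted group went without food for 12 hr before the liver was taken. Each group had 1 library, the labels do not say how many mice went into it, and every comparison below is therefore between 2 libraries and not between conditions.

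At an imprinted gene one parental copy is expressed and the other is silent, and the choice is held by a control region whose cytosines are methylated on only one parental copy. Most of the genes described here are expressed from the paternal copy, and their control regions carry methylation on the maternal copy, whereas the distant control region of Rasgrf1 is methylated on the paternal copy. In tissue DNA such a region is read as intermediate methylation, and the files hold no parental origin, so a difference between copies and a difference between cells cannot be told apart in them.

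Promoter sequences were taken from the RefSeq table of build GRCm38.p6, which held 9 start sites of 5 of the 8 genes, namely Mest, Plagl1, Grb10, Zdbf2 and Rasgrf1. Each window reaches from 250 bases before to 50 bases after the start. The 5 printed here are those with the measured cytosines on which the contrast within and between genes rests: the intermediate start of Plagl1, the methylated and the unmethylated start of Zdbf2, and the nearly unmethylated starts of Grb10 and Rasgrf1. Capitals mark the CpGs that were measured in both libraries on at least 1 strand, and all sequences read in the direction of the gene.
Plagl1, chr10:13090582-13090881, plus strand: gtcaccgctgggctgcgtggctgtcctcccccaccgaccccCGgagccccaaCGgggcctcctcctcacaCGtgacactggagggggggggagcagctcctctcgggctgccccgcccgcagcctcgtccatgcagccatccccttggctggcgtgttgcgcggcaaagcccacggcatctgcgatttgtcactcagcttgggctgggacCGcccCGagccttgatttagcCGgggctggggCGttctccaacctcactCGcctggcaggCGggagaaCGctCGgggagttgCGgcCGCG
Zdbf2 first start, chr1:63200108-63200407, plus strand: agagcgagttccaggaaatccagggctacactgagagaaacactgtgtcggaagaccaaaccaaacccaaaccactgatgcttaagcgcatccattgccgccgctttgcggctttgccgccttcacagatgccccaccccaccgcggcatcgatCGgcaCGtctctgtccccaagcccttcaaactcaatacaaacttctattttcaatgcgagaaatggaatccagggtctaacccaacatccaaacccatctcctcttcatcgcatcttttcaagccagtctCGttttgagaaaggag
Zdbf2 second start, chr1:63273019-63273318, plus strand: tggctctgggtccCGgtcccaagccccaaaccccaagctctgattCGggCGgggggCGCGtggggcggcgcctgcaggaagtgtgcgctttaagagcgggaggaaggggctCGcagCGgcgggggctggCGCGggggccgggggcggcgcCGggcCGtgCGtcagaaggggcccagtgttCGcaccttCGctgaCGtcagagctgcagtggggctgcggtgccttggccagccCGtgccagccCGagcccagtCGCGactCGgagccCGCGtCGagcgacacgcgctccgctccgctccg
Grb10 first start, chr11:12037371-12037670, minus strand: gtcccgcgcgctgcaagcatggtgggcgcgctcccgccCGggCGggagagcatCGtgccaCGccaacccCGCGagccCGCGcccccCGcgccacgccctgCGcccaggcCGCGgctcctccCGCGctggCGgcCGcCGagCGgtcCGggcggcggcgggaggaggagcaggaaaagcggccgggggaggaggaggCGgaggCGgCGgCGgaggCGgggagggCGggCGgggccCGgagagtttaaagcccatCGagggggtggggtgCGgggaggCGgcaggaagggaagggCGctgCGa
Rasgrf1, chr9:89909525-89909824, plus strand: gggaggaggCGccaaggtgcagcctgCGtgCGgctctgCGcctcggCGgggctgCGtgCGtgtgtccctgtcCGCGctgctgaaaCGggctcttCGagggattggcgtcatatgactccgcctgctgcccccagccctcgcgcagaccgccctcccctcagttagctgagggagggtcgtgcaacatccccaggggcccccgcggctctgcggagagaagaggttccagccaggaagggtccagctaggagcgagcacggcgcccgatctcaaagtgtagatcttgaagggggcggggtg

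In the Plagl1 window 14 of 26 CpGs were measured, through 27 cytosines, with a mean methylation level of 38.1% in control liver and 40.2% in fasted liver. The window of the first Zdbf2 start had 3 of 15 CpGs measured, at 96.7% in control liver and 78.5% in fasted liver. The window of the second Zdbf2 start had 23 of 38 CpGs measured, at 2.79% and 2.86%. The Grb10 window had 32 of 45 CpGs measured, at 2.78% and 1.01%. The Rasgrf1 window had 11 of 26 CpGs measured, at 3.29% and 2.71%. Among these windows only that of Plagl1 was intermediate in both libraries. The letters TGCCGC, to which the imprint protein ZFP57 binds when they are methylated, were searched on both strands and stood in 5 of the 9 windows, or 4 of 8 when the last 2 Mest windows, which are shifted by 3 bp and hold the same matches, are counted once. Among promoter windows of the genome 3808 of 32815 (11.6%) held them. The letters contain a CpG, and the genome's windows had a median of 7 CpGs, against 8 to 45 in the 9 windows. Windows of like CpG number were not compared, so the 2 shares cannot show an excess at imprinted genes. Counting each match, the first Zdbf2 window held 3, the last 2 Mest windows held the same 2, those of Plagl1 and Grb10 held 1 each, and those of the first Mest start, the second Grb10 start, the second Zdbf2 start and Rasgrf1 held 0. The Grb10 match was measured and lies in a nearly unmethylated window, and the matches of Plagl1, Zdbf2 and Mest were not measured.

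The 8 regions held more intermediate cytosines than the genome did. Of their 1206 cytosines, 313 (26.0%) had a mean level of the 2 libraries between 30 and 70%, against 11.2% of all cytosines. An intermediate stretch was defined as a run of at least 10 cytosines, neighbours at most 1000 bp apart, whose running median over 5 cytosines of that mean lay between 30 and 70%. By this rule the regions held 10 stretches with 186 cytosines (15.4%), against 1.32% of all cytosines in 2322 stretches of the genome. Of the 8 genes, 7 had at least 1 stretch, against 7.54% of all gene regions, and Rasgrf1 had none. Peg10 and Sgce were counted for the same stretch. The number of genes depended on the settings: it was 5 with a minimum of 10 reads (without Peg10 and Sgce) or with stretches located on control liver alone, 4 with stretches located on fasted liver alone, 2 with a minimum of 20 reads, at least 20 cytosines or a range of 40 to 60%, and 8 with at least 5 cytosines. The stretches were located on the mean of both libraries, so their levels are a description, and the difference between libraries is the quantity that the rule did not use.

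**Figure D1:**
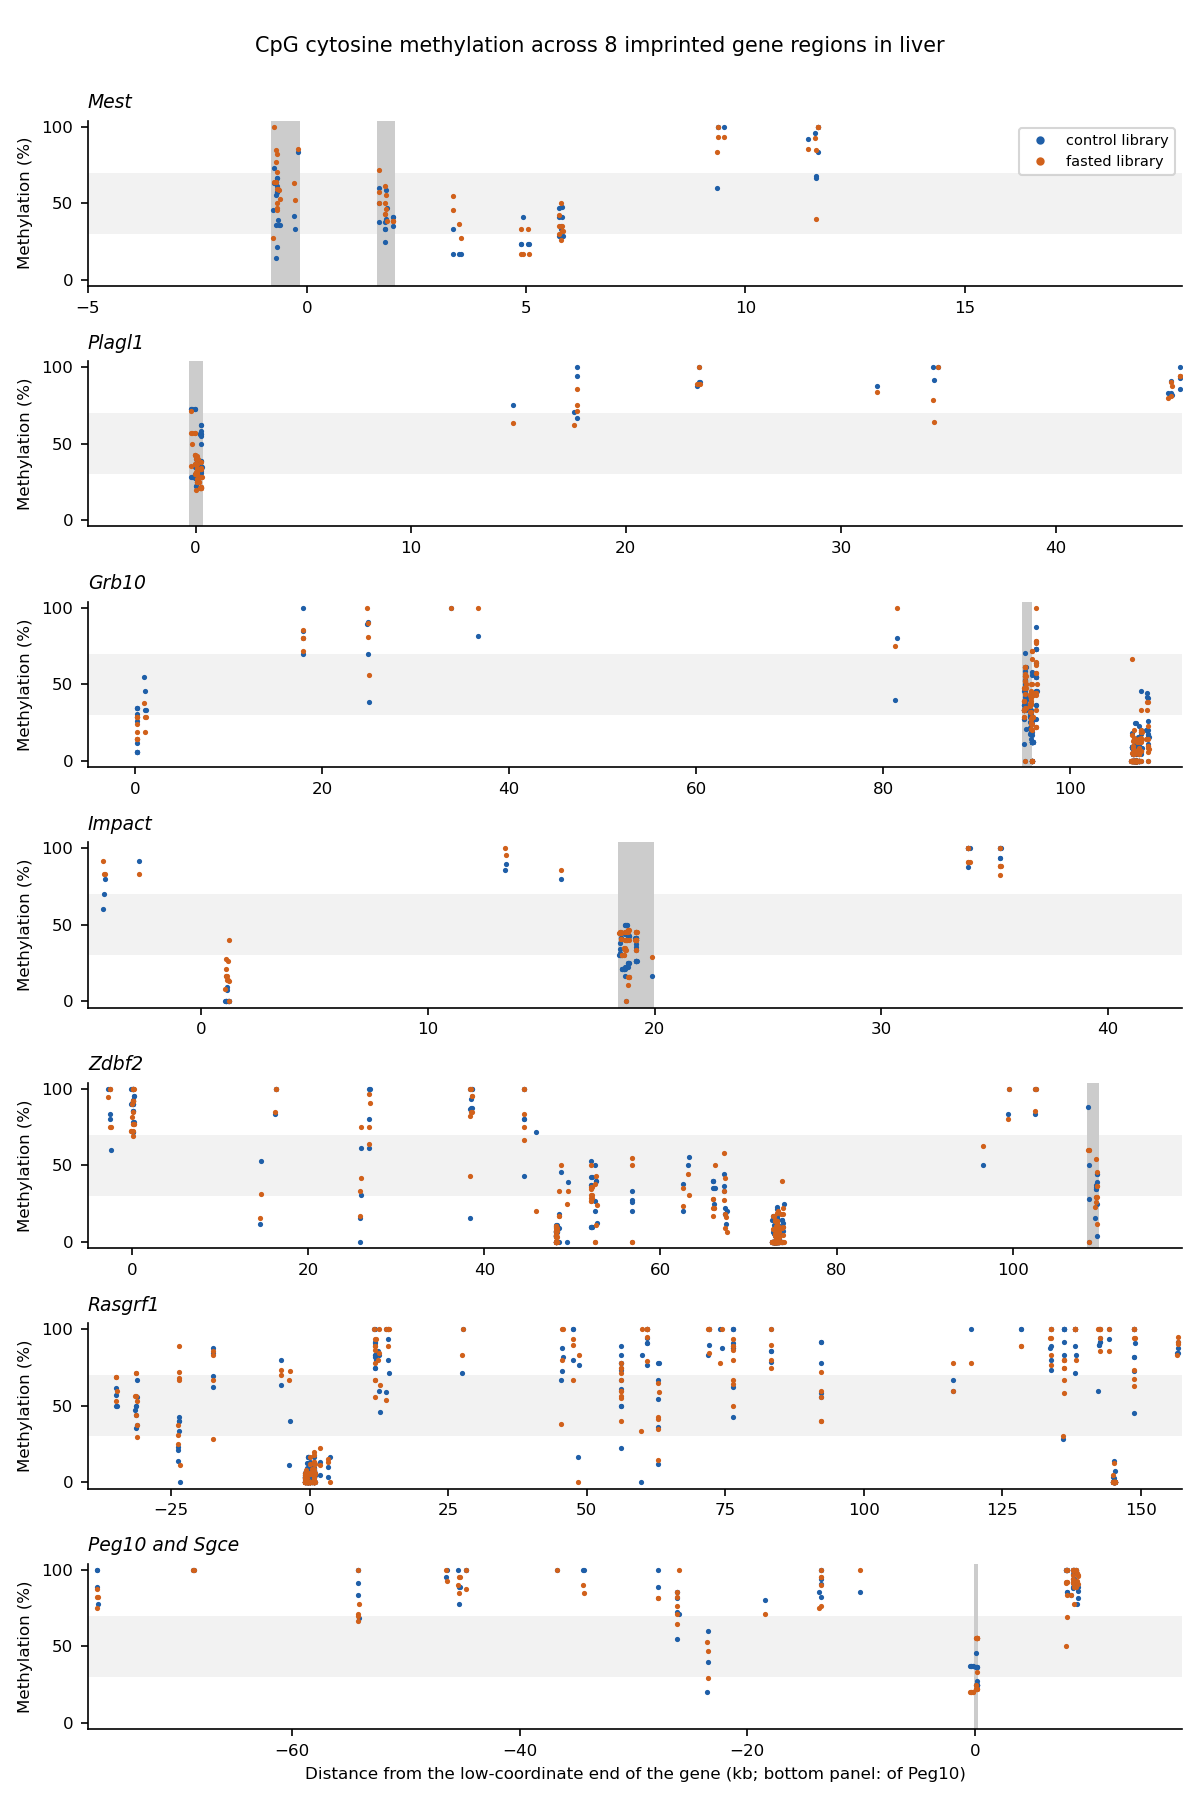
Methylation (%) of each measured CpG cytosine against its distance (kb) from the low-coordinate end of the gene, with 1 panel per region (Peg10 and Sgce share the bottom panel). Blue points are the control and orange points the fasted library, the light band spans 30 to 70%, and dark bars mark the 10 intermediate stretches, which take up a small part of each region; outside them most cytosines lie below or above the band.

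Mest encodes a protein of the alpha/beta hydrolase fold family and has 3 RefSeq starts, the first 4547 bp before the last. It was the region with the largest share of intermediate cytosines, 40 of 60 (66.7%), at 49.6% in control liver and 56.2% in fasted liver. Its 2 stretches lie around the first start, at chr6:30732729-30733306, which is 777 to 200 bp before it, and at chr6:30735142-30735476, which is 1636 to 1970 bp after it. The first stretch had 19 cytosines, at 49.96% in control liver and 63.4% in fasted liver, and the second had 13, at 41.6% and 48.5%. The windows of the starts after it had 0 measured cytosines. The 13 cytosines from 337 to 1284 bp after the second start, a block chosen after its values were seen, stood at 33.7% in control liver and 30.6% in fasted liver.

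Plagl1 encodes a zinc finger transcription factor that restrains cell growth. It had 54 of 90 cytosines in the intermediate range (60%). From 209 bp before to 280 bp after the start, a block chosen after its values were seen, 70 cytosines averaged 38.3% in control liver and 32.8% in fasted liver, and 52 of the 70 were in the intermediate range. The lowest stood at 22.2% in control and 20% in fasted liver. By contrast the 20 cytosines measured further inside the gene and after it stood at 88.6% and 83.6%. The first stretch, chr10:13090623-13090864, overlaps the printed promoter and had 20 cytosines at 40.6% and 42.5%. The second, chr10:13090973-13091112, begins 141 bp after the start and had 24 cytosines at 43.3% in control liver and 27.6% in fasted liver.

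Grb10 encodes an adaptor protein that binds the insulin receptor and dampens its signalling. Its first start was nearly unmethylated, and the window of its second start had 0 measured cytosines. The 135 cytosines within 688 bp before and 419 bp after the first start stood at 4.52% in control liver and 4.36% in fasted liver. The only stretch lies inside the gene at chr11:12025522-12026224, from 1747 to 2449 bp after the second start, and had 40 cytosines at 36.5% in control liver and 43.0% in fasted liver. Among all 2322 stretches of the genome it ranked 27 by its number of cytosines, and no other stretch of the 8 genes ranked above it. With the cytosines that follow it up to chr11:12026881, a block chosen after its values were seen, 115 cytosines stood at 30.4% and 40.2%, with 90 higher and 15 lower in fasted liver. The stretch ends inside a cluster of 66 cytosines at chr11:12026185-12026469, also chosen after its values were seen. That cluster stood at 19.5% in control and 34.4% in fasted liver, with 57 higher and 2 lower. Its smallest unadjusted p for a single cytosine was 0.0537 (Fisher's exact test).

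Impact encodes an inhibitor of the kinase GCN2, which senses lack of amino acids. Its 3 stretches lie close together inside the gene, beginning 18441, 18683 and 18866 bp from its low-coordinate end, at chr18:12973131-12973220, chr18:12973373-12973524 and chr18:12973556-12974565. They held 10, 18 and 18 cytosines. The first stood at 35.0% in control liver and 44.0% in fasted liver, the second at 31.2% and 37.6%, and the last at 33.3% and 39.0%. All 3 were below 50% in both libraries.

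Zdbf2 encodes a protein with a DBF4-type zinc finger. Its 2 listed starts are 72911 bp apart and were opposite in level: the 21 cytosines at the first start stood at 90.0% in control liver and 86.0% in fasted liver, and the 139 at the second start at 4.11% and 4.15%. Between them, from 20841 to 5409 bp before the second start, 39 cytosines in scattered clusters stood at 30.1% and 27.8%, with 21 of them in the intermediate range. This block was chosen after its values were seen, and no run in it met the rule for a stretch. The stretch found by the rule lies elsewhere, at chr1:63308950-63309924, which ends 4652 bp before the end of the gene span, and its 14 cytosines stood at 34.3% and 35.8%. Single cytosines in it ranged from 0 to 88.2% in control liver and from 0 to 60% in fasted liver.

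Rasgrf1 encodes an exchange factor that activates Ras proteins. The 117 cytosines from 1095 bp before to 642 bp after its start were nearly unmethylated, at 3.35% in control liver and 2.34% in fasted liver. Far upstream, from 35163 to 31460 bp before the start, 12 cytosines at chr9:89874612-89878315 were all intermediate, at 50.4% in control liver and 55.8% in fasted liver. They fall into a group of 4 and a group of 8 that are more than 1000 bp apart, which is why the rule did not join them, and the block was chosen after its values were seen. Both strands were intermediate, the plus strand at 48.2% and 55.2% and the minus strand at 52.7% and 56.4%.

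Peg10, a gene derived from a retrotransposon that is needed in the placenta, and Sgce, which encodes epsilon-sarcoglycan, are read in opposite directions from neighbouring starts. Their shared stretch, chr6:4747418-4747476, begins 112 bp after the low-coordinate end of Peg10, and its 10 cytosines stood at 31.6% in control liver and 40% in fasted liver. It was the shortest of the stretches, 59 bp, and rested on a median of 9.5 and 9 reads per cytosine. The rest of both regions was mostly methylated, with 29 of 52 cytosines of the Peg10 region and 32 of 62 of the Sgce region above 80%.

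In control liver, the 2 strand means of a stretch were further apart than the 2 library means in 7 of 10 stretches, and in fasted liver in 5 of 10. A strand mean rests on fewer cytosines than a library mean, which takes in both strands, so the 2 gaps are not like for like. The 95% exact Clopper-Pearson intervals given here were computed at the mean number of reads per cytosine, because a read that spans several CpGs is counted at each, and they cover counting error only. In the Plagl1 stretch after the start, the plus strand stood at 54.3% in control liver (13 of 24 reads, interval 32.8 to 74.4%) and at 21.6% in fasted liver (6 of 27 reads, interval 8.62 to 42.3%). The minus strand of the same stretch stood at 33.9% (11 of 33 reads, interval 17.96 to 51.8%) and 32.7% (9 of 28 reads, interval 15.9 to 52.4%). Its difference between libraries was thus carried by the plus strand, where 11 control cytosines ranged from 28.6 to 62.5% and 11 fasted cytosines from 21.1 to 25%.

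In the Mest stretch before the first start the strands were reversed in this respect. The plus strand stood at 57.2% in control liver (interval 32.3 to 83.7%) and 57.4% in fasted liver (interval 38.4 to 81.9%). The minus strand stood at 40.01% in control liver (7 of 16 reads, interval 19.8 to 70.1%) and 71.7% in fasted liver (12 of 17 reads, interval 44.0 to 89.7%). The second Mest stretch stood at 41.5% on the plus and 41.7% on the minus strand in control liver, and at 46.0% and 54.2% in fasted liver. All of these intervals overlap between the libraries.

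**Figure D2:**
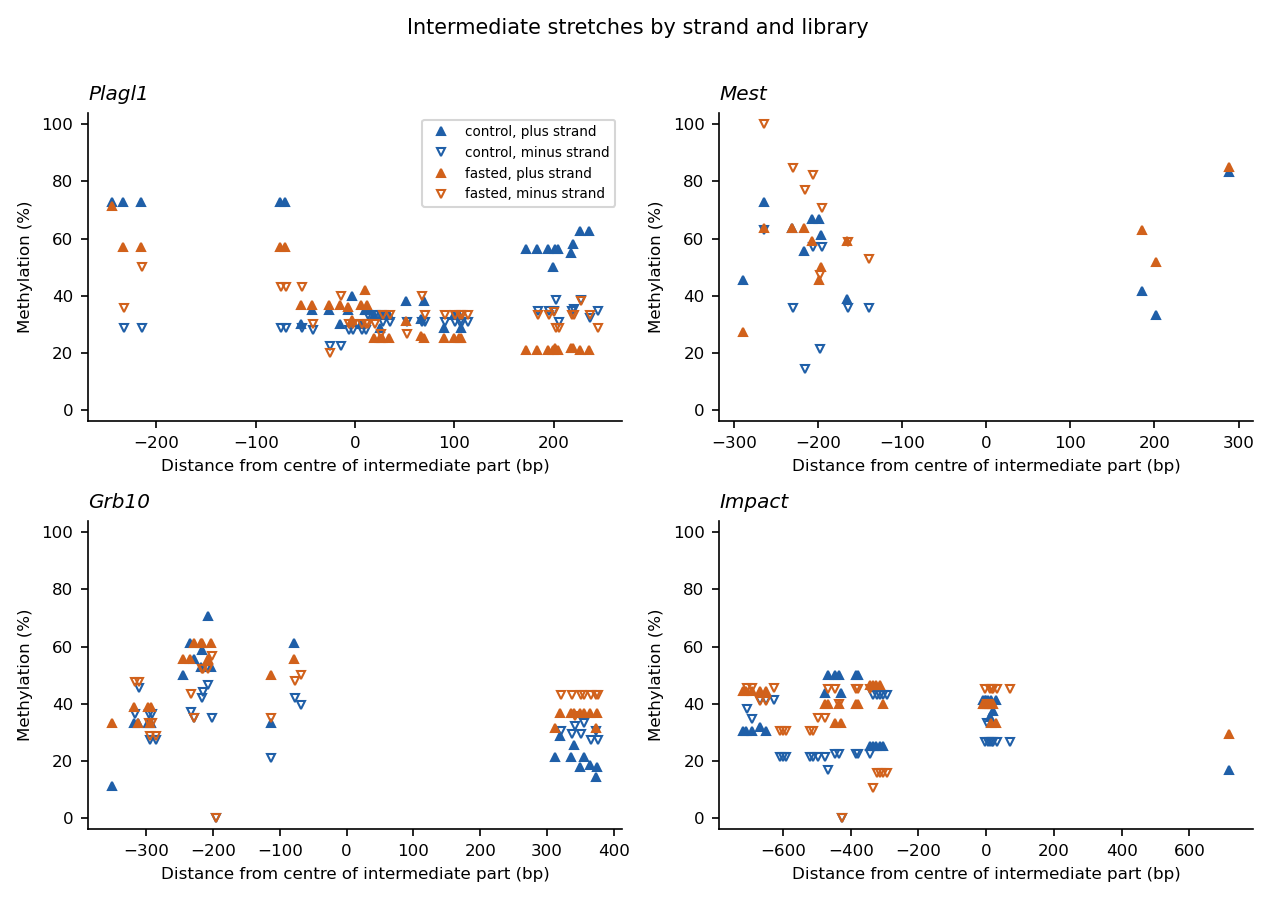
Methylation (%) of single cytosines against the distance (bp) from the centre of the intermediate part in Plagl1, Mest (first stretch), Grb10 and Impact. Filled triangles are the plus and open triangles the minus strand, blue the control and orange the fasted library; at the right of the Plagl1 panel the filled blue triangles lie at 50 to 62.5% and the filled orange ones near 21%, while the open triangles of both libraries overlap.

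In the remaining stretches the libraries differed on both strands or mainly on 1. In Grb10 both strands had higher means in fasted liver, 39.4% and 45.6% on the plus and 33.6% and 40.4% on the minus strand. In the first Impact stretch the plus strand stood at 30.7% in control liver and 44.4% in fasted liver, and the minus strand at 39.3% and 43.6%. In the second Impact stretch the plus strand stood at 41.0% and 40.7%, and the minus strand at 21.3% and 34.5%. The last had 37.4% and 37.3% on the plus, and 29.2% and 40.6% on the minus strand. In the Peg10 and Sgce stretch the strands differed in opposite directions, with 38.2% and 24.4% on the plus and 25% and 55.6% on the minus strand, each on 8 to 11 reads. The Plagl1 stretch at the start stood at 51.7% and 46.8% on the plus, and at 27.0% and 37.1% on the minus strand. The Zdbf2 stretch stood at 29.3% and 29.6% on the plus, and at 39.2% and 42.0% on the minus strand.

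**Figure D3:**
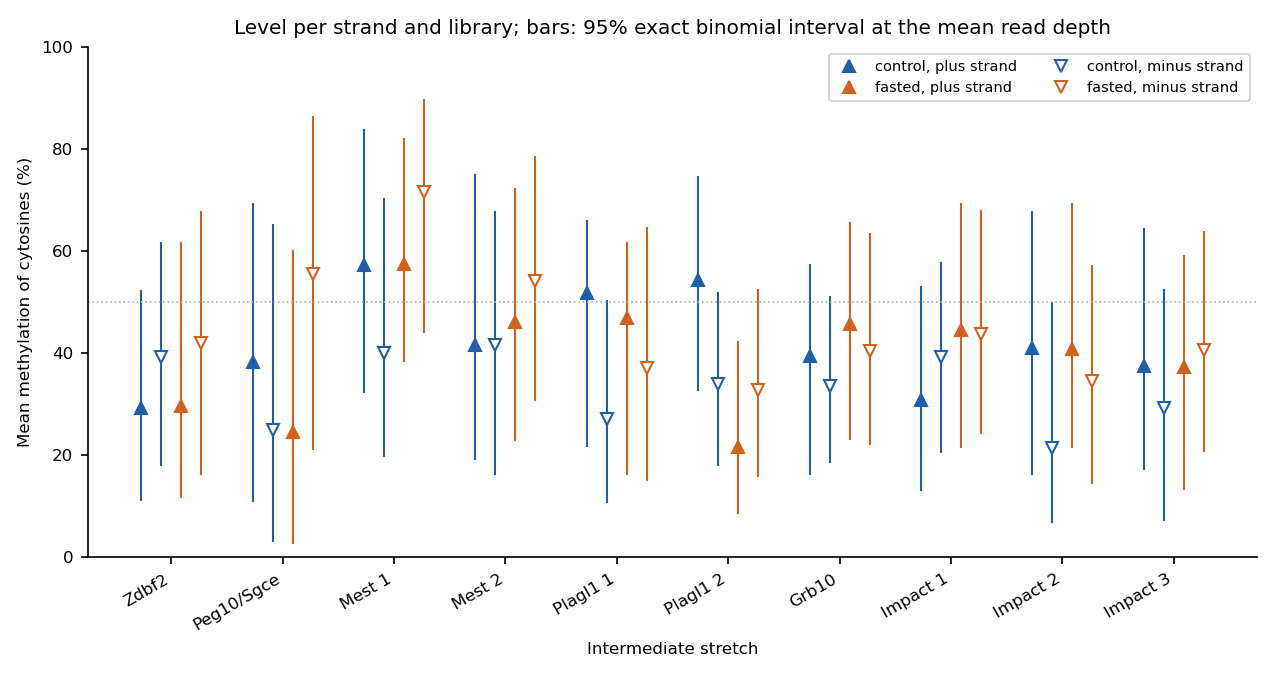
Mean methylation (%) of the 10 intermediate stretches by strand and library. Triangles are means over the cytosines of a strand and bars are 95% exact binomial intervals at the mean number of reads per cytosine; the intervals of control and fasted overlap on the same strand in every stretch.

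Over the 80 CpGs of these stretches that were measured on both strands, the plus strand averaged 43.5% and the minus strand 32.4% in control liver, a gap of 11.1 percentage points. In fasted liver the averages were 39.8% and 43.4%, a gap of -3.62 points. Over 12585 such CpGs in all stretches of the genome the gap was 0.0648 and 0.0983 points. The absolute gap per CpG in the 10 stretches averaged 16.6 points in control and 12.5 in fasted liver, where all stretches had 16.4 and 15.4. Between the libraries, the absolute gap at these CpGs averaged 12.7 points on the plus and 13.9 on the minus strand. The plus strand was the higher one in 8 of the 10 stretches in control liver and in 4 of 10 in fasted liver. CpGs of one stretch share reads, and the strand gap was not tested.

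The fasted library was higher in 9 of the 10 stretches and lower only in the Plagl1 stretch after the start, against 49.4% of all stretches higher in fasted. The median difference was 6.46 points, against -0.134 points over all stretches. On the plus strand alone, a setting chosen after seeing the data, the Peg10 and Sgce stretch was lower in fasted liver too, at -13.7 points. So were the Plagl1 stretch at the start (-4.87 points) and the last 2 Impact stretches (-0.231 and -0.0763 points). On the minus strand alone only the Plagl1 stretch after the start was lower, at -1.21 points. Of the 10 stretches, 3 lie in Impact and 2 each in Mest and Plagl1, so they are not separate loci. The size of the differences was like that elsewhere, with a median absolute difference of 6.72 points against 7.07. Summed reads of each stretch entered Fisher's exact test, two-sided, p-values were adjusted by Benjamini-Hochberg over the 2322 stretches, and a call needed an adjusted p below 0.05 together with 10 points or more between mean levels. By this rule 2 of the 10 stretches were called, 1 higher and 1 lower in fasted, and 22.7% of all stretches were called (10.2% higher, 12.4% lower), so the share of the imprinted genes is near the background.

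The called stretches were the Mest stretch before the first start, higher by 13.5 points (adjusted p 0.00734, 13 of 19 cytosines higher), and the Plagl1 stretch after the start, at -15.7 points (adjusted p 9.58e-07, 20 of 24 cytosines lower). The Grb10 stretch passed the adjusted p (0.000899) with 31 of 40 cytosines higher, but its difference of 6.46 points was under 10. The other 7 stretches differed by 1.54 to 9.03 points, all with higher means in fasted liver and adjusted p from 0.181 to 0.889. The sums count a read once for each CpG that it spans. When the reads of each stretch were divided by its number of cytosines, the adjusted p was 1 for each of the 10, the unadjusted p was 0.4996 for the Mest and 0.412 for the Plagl1 stretch, and 1 of 2322 stretches (0.0431%) was called. This division runs over the cytosines of both strands and of all fragments in a stretch, so it also discards separate reads. With so few calls in the genome, it cannot show whether the Mest and Plagl1 calls rest only on reads counted at each CpG.

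**Figure D4:**
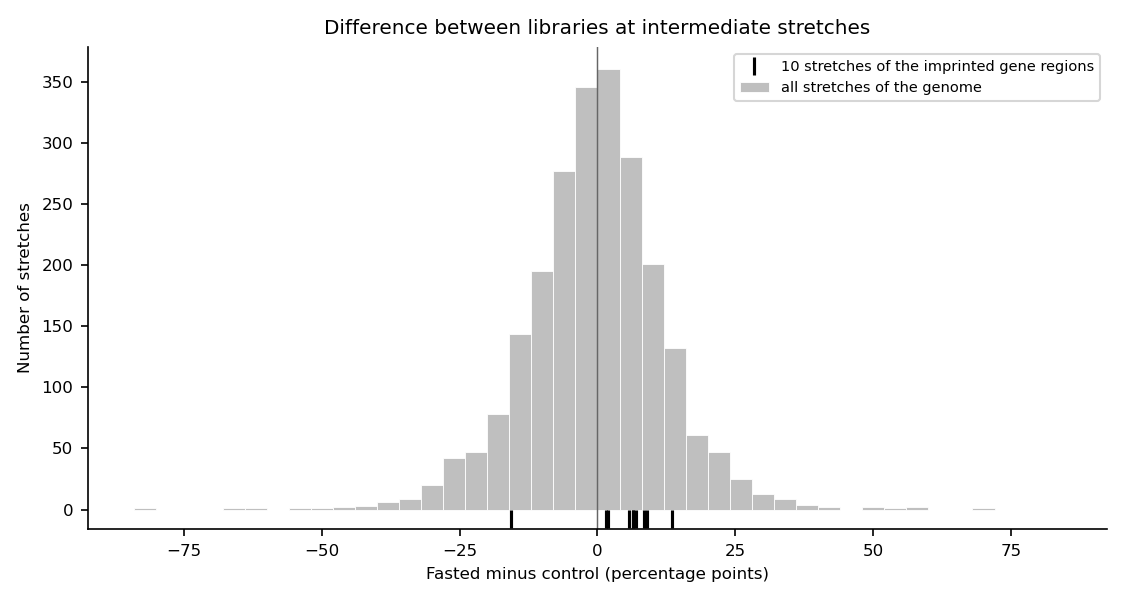
Number of intermediate stretches of the genome (grey bars) by the difference in mean methylation, fasted minus control, in percentage points. Black ticks mark the 10 stretches of the imprinted genes, from -15.7 (Plagl1) to 13.5 (Mest), inside a distribution of all stretches from -82.9 to 68.6 with quartiles at -7.46 and 6.81.

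Of the single cytosines in the 8 regions, 509 were higher and 458 lower in fasted liver and 239 equal. With an adjusted p below 0.05 (Fisher's exact test, adjusted over all 2520523 cytosines) and 25 points or more required for a call, 0 were called, against 1368 cytosines of the genome (0.0543%). At an unadjusted p under 0.05 there were 34 of 1206 (2.82%), against 1.85% of all cytosines. Where both libraries had 20 reads or more, the largest differences were in the stretches already named. The Mest cytosine at chr6:30732754 on the minus strand had 17 of 27 reads methylated in control liver and 26 of 26 in fasted liver, 37.0 points more (adjusted p 0.464). The Plagl1 cytosines at chr10:13091087 and chr10:13091072 on the plus strand had 18 of 31 and 18 of 32 reads methylated in control liver and 8 of 37 and 8 of 38 in fasted liver, which gives -36.4 and -35.2 points (adjusted p 1 for both).

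The smallest p belonged to Impact, near the low-coordinate end of the gene and far from its stretches. There, 1057 bp inside the gene span, a cluster of 12 cytosines at chr18:12955747-12955932 stood at 1.35% in control liver (3 of 362 reads) and at 17.96% in fasted liver (55 of 297 reads). Of these cytosines 11 were higher and 0 lower in fasted liver, and both strands shared the difference, from 1.52% to 12.4% on the plus and from 1.19% to 23.5% on the minus strand. Its cytosine at chr18:12955792 had 0 of 56 reads methylated in control liver and 10 of 36 in fasted liver (Fisher's exact test, adjusted p 0.0563). If each count stands for a separate molecule, 0 of 56 reads allows a level of up to 5.36%. Otherwise both this limit and the p are higher. The counts of this cytosine are all even, and its depth is above the cluster medians of 22.5 reads in control and 16.5 in fasted liver. Whether its reads repeat molecules was not tested. The cluster was chosen after its values were seen.

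Whole gene regions were compared in the same way over 31540 regions, of which 1.16% were called with the thresholds used for stretches. Of the 8, 0 were called, and 6 had an unadjusted p under 0.05 by Fisher's exact test, as 28.1% of all regions did. The adjusted p was under 0.05 in 5 of the 8 and in 16.4% of all regions. These sums also count a read once for each CpG that it spans. When the reads of each region were divided by its number of cytosines, 0 regions of the genome were called. That division also discards separate reads. The Impact region was higher by 5.82 points in fasted liver (40.5% to 46.4%, adjusted p 7.31e-05) and the Mest region by 6.57 points (adjusted p 0.00590). Grb10 was higher by 3.82 points (19.7% to 23.5%, adjusted p 0.0165). Zdbf2 (-0.272 points, adjusted p 0.00287) and Rasgrf1 (-0.0315 points, adjusted p 0.0424) passed on summed reads with mean cytosine levels that hardly differed. Plagl1 stood at 49.5% and 44.1% (-5.38 points, adjusted p 0.0710), Peg10 at 69.2% and 68.8% (adjusted p 0.751) and Sgce at 68.1% and 66.9% (adjusted p 0.449). The median absolute difference over all regions was 1.17 points.

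Neighbouring CpGs in the stretches of the imprinted genes had equal counts at a larger share than those of other stretches. Pairs of neighbours on the same strand, at most 50 bp apart, with equal depth of at least 10 reads and a mean level between 30 and 70% were counted. In control liver 26 of 76 such pairs (34.2%) had the same methylated count and 67.1% were within 1 read. In fasted liver 38 of 89 (42.7%) had the same count and 78.7% were within 1 read. In the other intermediate stretches of the genome the shares with the same count were 17.2% of 9255 and 16.3% of 9406 pairs. In Impact all of the 5 and 7 control pairs of its last 2 stretches, and all of the 8, 11 and 11 fasted pairs, were within 1 read. The stretches differed among themselves: in the first Mest stretch 40% of 10 pairs were within 1 read in control liver and 33.3% of 9 in fasted liver, in the Plagl1 stretch at the start 33.3% of 3 control pairs were, and in the Grb10 stretch 1 of 20 control pairs (5%) had the same count. Pairs share reads, and the pairs of imprinted and other stretches were not matched for spacing or for depth. By the median, cytosines were denser in the stretches of the imprinted genes than in all stretches of the genome. The larger shares therefore cannot be assigned to imprinted genes as such, and they are a description with no test.

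**Figure D5:**
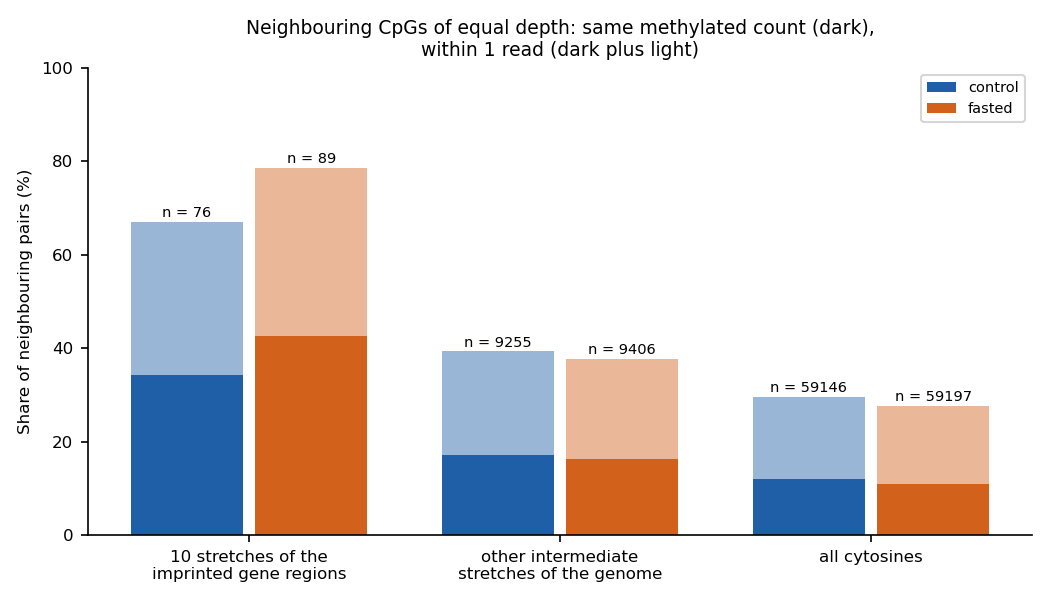
Share (%) of neighbouring CpG pairs of equal depth that had the same methylated count (dark bars) or a count within 1 read (dark plus light bars), for the 10 stretches of the imprinted genes, the other intermediate stretches and all cytosines. Blue is the control and orange the fasted library, n is the number of pairs, and the stretches of the imprinted genes reach 67.1% and 78.7% within 1 read against 39.3% and 37.7% in the other stretches.

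Genes around the 8 members, other imprinted genes and genes that maintain imprints were measured by the same rules, under which 1.16% of all gene regions were called and 7.54% held a stretch. Of 21 listed neighbours, 18 matched the gene table and 0 of the 18 regions were called. A stretch lay in 1 of the 18 (5.56%), a share near that of all regions; it was that of Asb4, with 13 cytosines at 38.7% in control liver and 43.7% in fasted liver. Of 17 other imprinted genes in the list, 16 matched, 0 of their regions were called and 11 (68.8%) held a stretch. Of 13 genes that maintain imprints, 1 region (7.69%) was called, that of Dppa3, whose product protects methylation in the early embryo, at 70.9% in control liver and 81.5% in fasted liver. The other 12 were not called, among them Trim28 and Zfp57, the latter encoding the protein that binds methylated control regions.

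Summed over cytosines, read coverage came to 49253627 for control and 51276705 for fasted liver, and the median at the cytosines of the 8 regions was 16 reads in both. Methylated and unmethylated counts were both even at 57.5% and 54.1% of the genome's cytosines with 30 to 49 reads and a level of 20 to 80%, which bears on how many molecules a count stands for. Mean methylation over all measured cytosines was 45.2% and 45.3%, and over those of the 8 regions 35.6% and 36.7%. The labelled tissue could be checked only through methylation near starts with at least 5 measured cytosines. The hepatocyte genes Apoa2 (7 cytosines) and Hnf4a (20 cytosines) stood at 21.0% and 21.8% in control liver and at 1.43% and 19.04% in fasted liver. The germ line genes Dazl, Ddx4 and Sycp3 stood at 33.2 to 76.2% in control liver and 32.2 to 70.4% in fasted liver. No start of the listed blood and immune genes or endothelial genes had enough cytosines, and the part of the cell makeup in the differences above was not tested.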

How the data were processed

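Per the labels' protocols, frozen liver DNA was cut with TaqαI and MspI, ligated to methylated adapters, selected on a gel in 2 size ranges, bisulfite converted, amplified and sequenced. The tools bcl2fastq 1.8.4 and Bismark 0.14.3 and the build mm10 are listed, per the submitters' processing notes. For alignment settings, duplicate removal and overlapping read mates, values were not given in the sources used here. The deposited files give for each CpG cytosine a text field with methylated and total read counts and a score, which is 1000 times the methylated fraction as the authors deposited it and differed from the counts by at most 0.5. Read counts were used for all values.

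Levels are means over cytosines, strands kept apart, with positions counted from 1. Samples were grouped by their titles. The genes and lists were chosen with earlier results of these data known. Named genes are the 8 members, the called items, the 3 deep cytosines with the largest differences, fixed lists of cluster neighbours, other imprinted genes, imprint maintenance genes and cell type markers, and the genes with the longest stretches. Tests were two-sided Fisher's exact tests (scipy 1.17.1, numpy 2.4.6, pandas 2.3.3) with Benjamini-Hochberg adjustment (statsmodels 0.14.6), tested on simulated data. The simulation drew each cytosine independently, so it does not cover reads shared between neighbouring CpGs. The PCR reads carry no molecular identifiers and may repeat a molecule, so only counting error enters the p-values and intervals. Of the 263250 promoter cytosines measured in the files, 263250 read C in the RefSeq table of GRCm38.p6. Alternatives were the coverage minimum, merged strands, halved counts, the rule for stretches, divided or read-weighted counts, and thresholds.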

Additional observations from a re-analysis of the deposited data

How the results depend on the processing

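Calls in the imprinted genes depended on the settings. The 0 called cytosines became 1, in Impact, with a minimum of 10 or of 20 reads. The 2 called stretches (Mest and Plagl1) became 1 with a minimum of 20 reads (Grb10), merged strands (Mest), halved counts (Plagl1), a level range of 25 to 75% (Mest), at least 20 cytosines (Plagl1), and location on the control (Mest) or the fasted library (Grb10), 3 with at least 5 cytosines (Mest, Plagl1 and Rasgrf1), and 0 with a level range of 40 to 60%, divided reads or a difference of at least 20 points. The 0 called gene regions became 1 with a minimum of 20 reads (Impact) and 2 with a difference of at least 5 points (Mest and Impact). The 10 stretches became 2 with a minimum of 20 reads, 3 with a range of 40 to 60% or at least 20 cytosines, and 22 with at least 5 cytosines, and with that range their fasted level was 53.2%. The other 50 results for counts and levels stayed within 1.5 times or their interval. Region differences changed sign for Rasgrf1 (0.358 points with a minimum of 10 reads, 0.189 with merged strands, 0.984 with halved counts, 2.30 read-weighted), Peg10 (0.112 merged, 0.464 halved, 1.503 read-weighted, 1.40 over the gene span only) and Zdbf2 (2.70 read-weighted). On the plus strand alone, a setting chosen after seeing the data, the difference was -13.7 points in the Peg10 and Sgce stretch, -4.87 in the Plagl1 stretch at the start, and -0.231 and -0.0763 in the last 2 Impact stretches, 0.253 in the called Mest and -32.8 in the called Plagl1 stretch. On the minus strand alone these called stretches gave 31.6 and -1.21 points. The causes were not tested. No paired analysis was possible because each group had 1 library.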

Other observations

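The longest intermediate stretches of the genome were not in imprinted genes of the lists. The stretch with the most cytosines, 103, lay in the region of Myorg, at 54.0% in control liver and 52.1% in fasted liver. The stretch shared by the regions of Fut11 and Sec24c had 100 cytosines at 49.8% and 56.4%, a difference of 6.69 points (Fisher's exact test on summed reads, adjusted p 2.92e-06) that was under 10 points. A stretch in the region of Zmiz1, with 93 cytosines, was called, at 36.4% in control liver and 55.8% in fasted liver (adjusted p 7.31e-12), and a second one in that region had 71 cytosines at 46.1% and 51.4%. Other stretches among the 10 longest lay in the regions of Akap5 and Mthfd1 (49.1% and 52.9%), Fbrsl1 (61.0% and 58.3%), Ngef (41.9% and 49.6%) and Espn (49.2% and 42.4%). The remaining ones were shared by Mzb1, Prob1 and Spata24 (47.0% and 55.5%) and by Fam83h, Iqank1 and Mapk15 (57.4% and 59.2%).

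Stretches were also found in other imprinted genes, and 22.7% of all stretches of the genome were called. Those called were 1 of 1 in Meg3, 2 of 9 in Gnas and 1 of 3 each in the regions of Igf2r and Airn. The Igf2r and Airn regions overlap and have the same longest stretch, so 1 call may be listed under both. The counts were 0 of 1 in Snrpn, Peg3, Nnat, Mcts2 and Zrsr1, and 0 of 2 in H19 and Peg13. The longest stretch of Nnat had 59 cytosines at 53.3% in control liver and 47.7% in fasted liver, and that of Gnas had 62 at 40.1% and 37.1%. The stretch of Meg3, with 16 cytosines, was called and stood at 53.0% in control liver and 38.1% in fasted liver. The stretch of Peg3 had 23 cytosines at 37.2% and 44.8%, and that of Snrpn had 14 at 30.5% and 39.8%. In the Rasgrf1 region a cluster of 7 cytosines at chr9:89885782-89885916, chosen after its values were seen, stood at 30.7% in control liver and 55.6% in fasted liver, with 7 of 7 higher; its smallest adjusted p for a single cytosine was 1. When runs of at least 5 cytosines counted as stretches, 1 in Rasgrf1 was called higher in fasted liver, among 1282 called of 13139 stretches of the genome.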
